A study of Mus musculus with 7 samples.

Results

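Retinoic acid is made from vitamin A inside cells and acts through nuclear receptors, and 9 genes for its synthesis, its carriage, its receptors and its turnover were followed through sorted mouse fetal mammary cells. They are Aldh1a1, Aldh1a2 and Aldh1a3, which encode the enzymes that oxidise retinaldehyde to retinoic acid, Crabp1 and Crabp2, which encode its carriers inside the cell, Rara, Rarb and Rarg, which encode the receptors, and Dhrs3, whose product reduces retinaldehyde back to retinol. The members were taken by gene symbol, each matched a single row, and together they are 9 of the 38579 gene entries of the deposited table. All 9 passed the filter on low values and stood among 14418 genes tested.

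RNA was sequenced from 7 libraries of primary CD1 mouse fetal mammary cells taken at E17.5, a late day of gestation, with no culture and no agent named for any of them. Sox10+EpCAM+ fMaSC (2 libraries) were cells positive for a Sox10-Venus fluorescent reporter and for the epithelial adhesion molecule EpCAM, fMaSC being a fraction labelled as fetal mammary stem cells. CD24+CD49f+ fMaSC (2 libraries) carried the surface glycoprotein CD24 and the integrin CD49f and were lineage-negative. The EpCAM-negative stroma (1 library, so no SD) was sorted beside the first fraction, with a title that also makes it Sox10-negative and lineage-negative, and CD24low stroma (2 libraries, lineage-negative) was sorted beside the second. The labels call the libraries biological replicates but do not say which animals or litters were pooled, and they do not describe what drives Venus. In comparisons across the sorts, any difference in reporter, animals or preparation cannot be told apart from the sorting strategy. Each stem cell label names a sorted fraction, not a single cell type.

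Markers of epithelium were present in both fMaSC fractions, and those of mesenchyme were also high in CD24+CD49f+ fMaSC. The summed level of 6 epithelial genes was 651 and 780 FPKM (fragments normalised for transcript length and library size) in Sox10+EpCAM+ fMaSC and 473 and 297 in CD24+CD49f+ fMaSC, against 6.07 in EpCAM-negative stroma and 2.73 and 1.92 in CD24low stroma. The summed level of 6 mesenchymal genes (Pdgfra, Col1a1, Col1a2, Col3a1, Dpt and Prrx1) was 35.8 and 61.8 FPKM in Sox10+EpCAM+ fMaSC but 1755 and 2927 in CD24+CD49f+ fMaSC, against 5483 in EpCAM-negative stroma and 6448 and 5544 in CD24low stroma. The CD24+CD49f+ values lay between those of the other fractions, and CD24+CD49f+ replicate 1 also stood apart in erythroid genes, at 3308 FPKM against 43.0 to 374 in the other libraries. An estimate from the lowest values put 24.9 to 37.6 M fragments behind each library, 12790 to 13639 genes reached 1 FPKM, and mitochondrial genes took 6.23% to 19.0% of the summed FPKM. In such bulk RNA, fewer cells of a type and less RNA per cell cannot be told apart.

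Retinol enters the cell, is oxidised to retinaldehyde and is then oxidised by an Aldh1a enzyme to retinoic acid, a ligand that Crabp2 is known to hand to its receptors and that Crabp1 is known to bring to the clearing Cyp26 enzymes. The receptors pair with an RXR partner on repeated motifs in DNA and switch on target genes, among which Rarb and Cyp26a1 are textbook examples whose own promoters hold such a motif. In mouse embryos retinoic acid is known from the patterning of many organs, and in flank explants it has been tied to the start of the mammary line.

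These textbook elements are shown because Rarb is both a receptor and a known target, and Cyp26a1 clears the ligand. They were read from RefSeq promoter windows of GRCm38.p6, which run from 250 bases before to 50 bases after a gene start, on the strand of the gene, and capitals mark the direct repeat.
Rarb: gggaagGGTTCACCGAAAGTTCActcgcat
Cyp26a1: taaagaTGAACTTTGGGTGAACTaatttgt
The Rarb run lies at chr14:16575506-16575535 on the minus strand, its repeat 53 to 37 bases before the start. The Cyp26a1 run lies at chr19:37697770-37697799 on the plus strand, its repeat read on the opposite strand, 32 to 16 bases before the start. The search was for direct repeats of the hexamer AGGTCA or of its variants, the hexamer AGTTCA, the hexamer GGTTCA and the hexamer GGGTCA, in any combination, with 5, 2 or 1 bases between them. Both strands were read and a window was counted once, and in both genes shown the hexamers are 5 bases apart. Of 32851 windows, 193 (0.588%) held any such repeat and 32 (0.0974%) held it with 5 bases between. Windows were found for 7 of the 9 members, 14 in all, and the Rarb window was the only one of these 14 with a match. Aldh1a3 and Crabp2 had no window in the table and were not searched. Of the 62 windows of 48 other retinoid genes, 2 held a match.

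Among the Aldh1a genes Aldh1a3 had the most RNA, and its top value was the highest of any member. That value was in Sox10+EpCAM+ fMaSC, while in every stroma library Crabp1, Rara and Rarg lay above Aldh1a3. Enzyme activity was not measured. Aldh1a3 (ENSMUSG00000015134, chr7:66390892-66427517 of GRCm38), known in human breast tissue for aldehyde dehydrogenase activity of progenitor cells, had 38.1 and 44.6 FPKM in Sox10+EpCAM+ fMaSC and 21.2 and 22.4 in CD24+CD49f+ fMaSC, against 4.11 in EpCAM-negative stroma and 5.73 and 6.92 in CD24low stroma. The 4 fMaSC libraries all lay above the 3 stroma libraries, and both Sox10+EpCAM+ values lay above both CD24+CD49f+ values. On the log2(FPKM + 1) scale, which understates the change of low genes, Aldh1a3 was higher in Sox10+EpCAM+ fMaSC than in EpCAM-negative stroma by 3.05 (SE 0.217, limma adjusted p = 0.000497) and by 1.64 in the CD24 and CD49f sort, where CD24+CD49f+ fMaSC were set against CD24low stroma (SE 0.177, adjusted p = 0.00396). The second of these calls ended when FPKM was rescaled to a common total (adjusted p = 0.133). Over all fMaSC against all stroma, with the sorting strategy as a covariate, the difference was 2.20 (SE 0.295, adjusted p = 0.00342). This call and the call in the Sox10 and EpCAM sort were kept under every alternative tried. The latter rests on a lone stroma library and could not be run without it.

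Between the fMaSC fractions, Aldh1a3 averaged 41.3 ± 4.60 FPKM in Sox10+EpCAM+ cells and 21.8 ± 0.851 in CD24+CD49f+ cells (SD, n = 2 each), a log2 difference of 0.89 (SE 0.177, adjusted p = 0.0330). That call ended without Sox10+EpCAM+ replicate 1 or 2, without CD24+CD49f+ replicate 2 and without CD24low replicate 1 or 2. The CD24low libraries are not in this comparison, so leaving either out changes the estimate of spread and not the difference. In each of these settings fewer of all genes were called higher than with all libraries. The Aldh1a3 call was also lost with no filter on low values (0.0620), with rescaling (0.709), with quantile normalization (0.0559) and with only the libraries compared (0.0682). Summed epithelial markers were also higher in both Sox10+EpCAM+ libraries (651 and 780 FPKM) than in both CD24+CD49f+ libraries (473 and 297), and their part in the difference was not tested. The difference of the fMaSC-stroma fold between the strategies, 1.41, did not pass the test (SE 0.280, adjusted p = 0.0888).

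Aldh1a2 (ENSMUSG00000013584, chr9:71215789-71296243), the main retinoic acid enzyme of the early mouse embryo's mesoderm, was the member closest to absence in any fraction. In Sox10+EpCAM+ fMaSC replicate 1 listed it at 0 and replicate 2 at 0.0146 FPKM, and it had 1.53 and 2.59 in CD24+CD49f+ fMaSC, 0.496 in EpCAM-negative stroma and 1.41 and 1.60 in CD24low stroma. At the estimated depths, 1 fragment gives a transcript of 2 kb between 0.0133 and 0.0201 FPKM, which is about the value of replicate 2. Aldh1a2 was lower in Sox10+EpCAM+ than in CD24+CD49f+ fMaSC by 1.58 on the log2(FPKM + 1) scale, written as a log2 difference of -1.58 (SE 0.204, adjusted p = 0.00803). The size depends on the pseudocount, reaching -4.29 with a pseudocount of 0.1, and the call ended without Sox10+EpCAM+ replicate 1 (adjusted p = 0.0867) or replicate 2 (0.0725).

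Against EpCAM-negative stroma the Aldh1a2 difference of Sox10+EpCAM+ fMaSC was -0.57 (SE 0.249, adjusted p = 0.143), and between CD24+CD49f+ fMaSC and CD24low stroma it was 0.27 (SE 0.203, adjusted p = 0.476), so neither passed, and the pooled difference was -0.07 (adjusted p = 0.840). The first of these passed without CD24+CD49f+ replicate 1 or 2 (adjusted p = 0.0427 and 0.0418) and with a pseudocount of 0.1 (adjusted p = 0.0126). The sum of endothelial markers was also lowest in Sox10+EpCAM+ cells: 4 genes summed to 2.35 and 2.93 FPKM there, with 0 and 1 of 4 at 1 FPKM or more, and to 11.3 and 16.6 FPKM in CD24+CD49f+ cells, with 4 of 4. In stroma they summed to 8.97 FPKM in the EpCAM-negative library and to 20.4 and 18.2 in the CD24low libraries, the highest of the groups. The list was split there, as Tek averaged 11.6 FPKM in CD24low stroma and 2.55 in CD24+CD49f+ cells. Pecam1, Cdh5 and Kdr were instead highest in CD24+CD49f+ cells. They averaged 4.77, 4.84 and 1.81 FPKM there, against 3.33, 3.38 and 1.06 in CD24low stroma. Mesenchymal markers were lowest in Sox10+EpCAM+ cells as well, and the part of either in the Aldh1a2 values was not tested.

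Aldh1a1 (ENSMUSG00000053279, chr19:20601961-20643462), the form known from adult epithelia and the eye, stayed near 1 FPKM throughout. It had 0.886 and 0.583 FPKM in Sox10+EpCAM+ fMaSC and 1.18 and 0.910 in CD24+CD49f+ fMaSC, against 0.761 in EpCAM-negative stroma and 1.29 and 1.67 in CD24low stroma. The fMaSC and stroma values overlapped, and the pooled log2 difference was -0.18 (95% interval -0.54 to 0.19, adjusted p = 0.407). Aldh1a7 is a near-identical neighbouring gene, and reads may have been split between them.

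**Figure D1:**
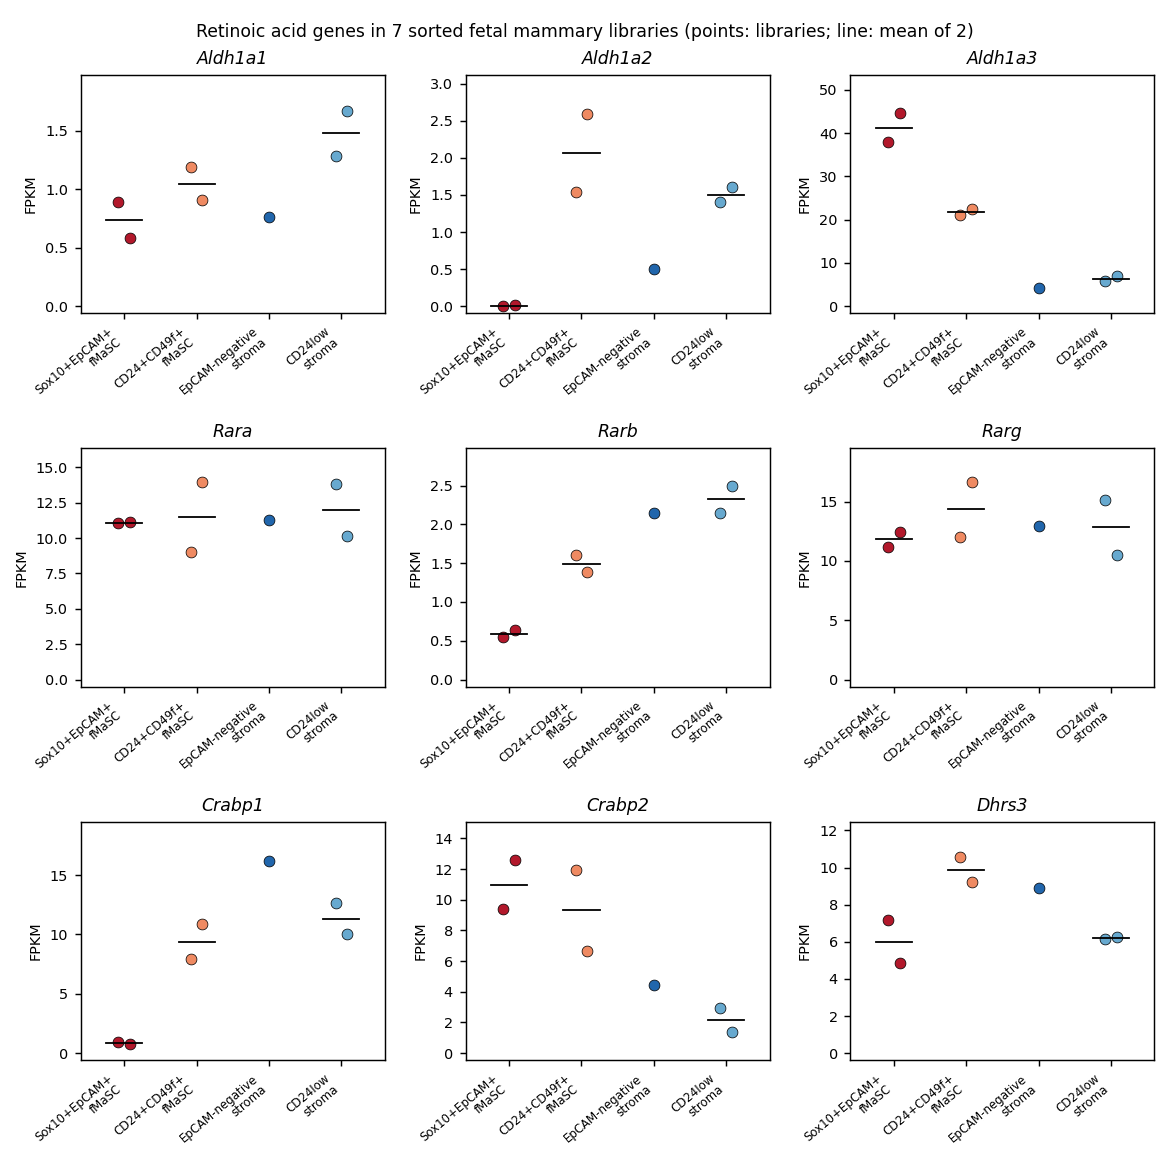
FPKM of the 9 retinoic acid genes (vertical axes, linear and starting at 0, with a scale of their own in each panel) in the 4 sort groups (horizontal axes); points are libraries and a line is the mean of 2. Aldh1a3 runs from 4.11 to 44.6 FPKM with every fMaSC point above every stroma point, while the Sox10+EpCAM+ points are the lowest of all 7 for Crabp1, Aldh1a2 and Rarb.

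The carriers were called in opposite directions but never in the same comparison: Crabp2 was higher in fMaSC of the CD24 and CD49f sort and of the pooled comparison, and Crabp1 was lower in Sox10+EpCAM+ fMaSC than in EpCAM-negative stroma and CD24+CD49f+ fMaSC. Crabp2 (ENSMUSG00000004885, chr3:87948666-87953376), the carrier known to pass retinoic acid to its receptors, had 9.40 and 12.6 FPKM in Sox10+EpCAM+ fMaSC and 11.9 and 6.67 in CD24+CD49f+ fMaSC, against 4.41 in EpCAM-negative stroma and 2.93 and 1.36 in CD24low stroma. Every fMaSC library lay above every stroma library, while the fMaSC fractions overlapped each other. Over all fMaSC against all stroma Crabp2 was higher by 1.48 (SE 0.281, adjusted p = 0.0120), a call that ended with rescaling to a common total (adjusted p = 0.119).

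Within the CD24 and CD49f sort Crabp2 was higher in fMaSC than in stroma by 1.71 (SE 0.354, adjusted p = 0.0330). This call was a weak one: it ended without Sox10+EpCAM+ replicate 1 or 2, without CD24+CD49f+ replicate 1 and without CD24low replicate 1 or 2. The Sox10+EpCAM+ libraries are not in this comparison, so leaving either out changes the estimate of spread and not the difference. Without a Sox10+EpCAM+ or CD24low library, fewer of all genes were called higher as well. The Crabp2 call was also lost with no filter on low values (0.124), with rescaling to a common total (0.169) and with only the libraries compared (0.0674). Within the Sox10 and EpCAM sort the difference was 1.13 (SE 0.434) and did not pass (adjusted p = 0.107), although it passed without CD24+CD49f+ replicate 1 or 2 (0.0451 for each) and with only the 3 libraries compared (0.000148). That last setting leaves 1 residual degree of freedom and called 4772 genes higher and 2664 lower of 12790, against 1803 and 1959 of 14418 with all libraries. Between the fMaSC fractions the difference was 0.25 (95% interval -0.61 to 1.12, adjusted p = 0.728).

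Crabp1 (ENSMUSG00000032291, chr9:54764748-54773110), the carrier tied to retinoic acid clearance and a known marker of several embryonic mesenchymes, stood apart in the Sox10+EpCAM+ fraction. It had 0.952 and 0.774 FPKM in Sox10+EpCAM+ fMaSC but 7.95 and 10.9 in CD24+CD49f+ fMaSC, against 16.2 in EpCAM-negative stroma and 12.6 and 10.0 in CD24low stroma. Only the Sox10+EpCAM+ libraries stood apart: the CD24+CD49f+ range reached into that of CD24low stroma. Crabp1 was lower in Sox10+EpCAM+ fMaSC than in EpCAM-negative stroma, with a log2 difference of -3.21 (SE 0.260, adjusted p = 0.000690), and lower than in CD24+CD49f+ fMaSC, with a difference of -2.47 (SE 0.212, adjusted p = 0.00254). Both calls were kept under every alternative that could be run. The first rests on 1 stroma library, and no fit without that library was possible. With only the libraries compared, Crabp1 did not pass the filter in that sort.

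For CD24+CD49f+ fMaSC against CD24low stroma the Crabp1 difference was -0.25 (95% interval -0.77 to 0.27, adjusted p = 0.524). The difference between the strategies was itself tested and passed, at -2.96 (SE 0.335, adjusted p = 0.0217), and Crabp1 was the only member to pass it. That call ended without Sox10+EpCAM+ replicate 1 or 2 (adjusted p = 0.170 and 0.139), without CD24low replicate 1 or 2 (0.0952 and 0.114), with no filter (0.0553) and with rescaling (0.112). The pooled difference, -1.43 (SE 0.574, adjusted p = 0.107), did not pass, and it passed without CD24+CD49f+ replicate 2 (0.0411). The 6 mesenchymal markers were lowest in the same libraries as Crabp1, at 35.8 and 61.8 FPKM in Sox10+EpCAM+ cells and 1755 FPKM or more in every other library, and their part in the Crabp1 values was not tested.

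As a share of the FPKM summed over a family, which is per length and so comparable between genes, the carriers changed places between fractions. Crabp2 made up 90.8% and 94.2% of the Crabp sum in Sox10+EpCAM+ fMaSC and 60.0% and 38.0% in CD24+CD49f+ fMaSC, against 21.4% in EpCAM-negative stroma and 18.8% and 12.0% in CD24low stroma. Crabp2 was the larger share in 3 of 4 fMaSC libraries and in none of 3 stroma libraries. Aldh1a3 made up 97.7% and 98.7% of the Aldh1a sum in Sox10+EpCAM+ fMaSC and 88.6% and 86.5% in CD24+CD49f+ fMaSC, against 76.6% in EpCAM-negative stroma and 68.0% and 67.9% in CD24low stroma. Aldh1a3 was thus the most abundant of its family in all 7 libraries, stroma included.

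**Figure D2:**
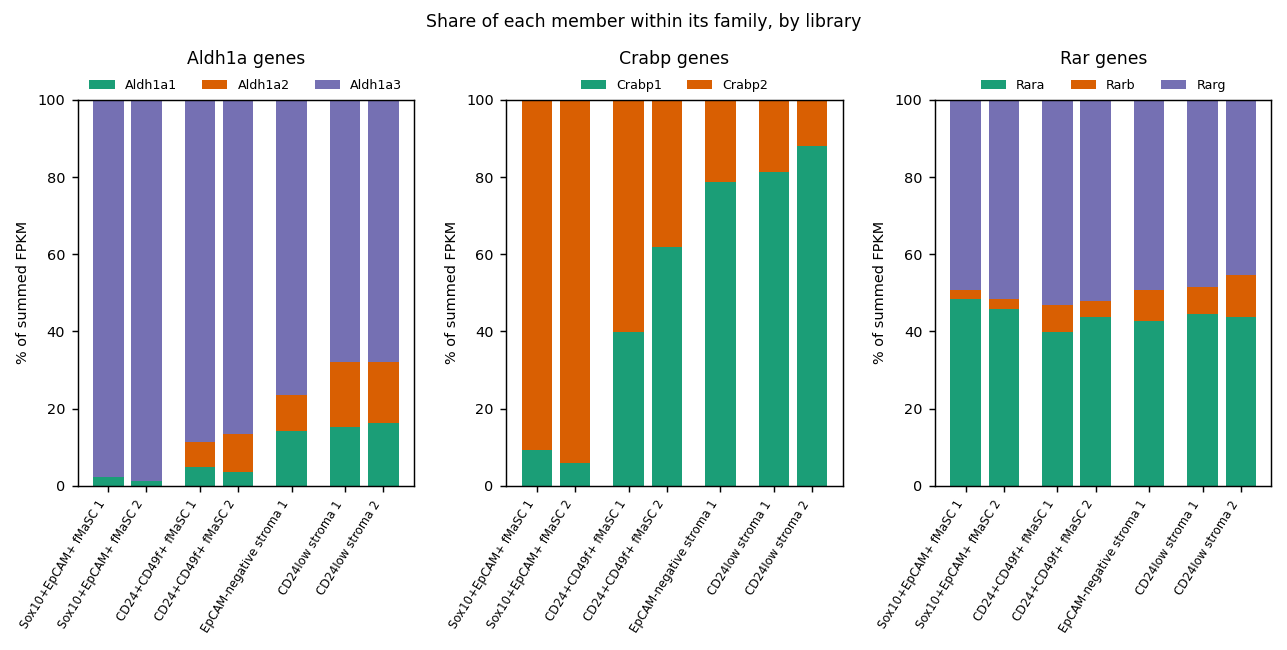
Share of each member in the summed FPKM of its family (vertical axis, percent, from 0 to 100) in each of the 7 libraries (bars), for the Aldh1a, Crabp and Rar genes. Crabp2 takes 90.8% and 94.2% of the Crabp bars in Sox10+EpCAM+ fMaSC and 12.0% to 21.4% in stroma, while Rara takes 39.8% to 48.5% of the Rar bars and Rarg 45.5% to 53.1%.

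The main receptors did not separate the fractions. Rara (ENSMUSG00000037992, chr11:98927818-98974942), the broadly expressed receptor, had 11.0 and 11.1 FPKM in Sox10+EpCAM+ fMaSC and 9.04 and 14.0 in CD24+CD49f+ fMaSC, against 11.2 in EpCAM-negative stroma and 13.8 and 10.1 in CD24low stroma. Rarg (ENSMUSG00000001288, chr15:102234938-102257517), the receptor prominent in skin and other epithelia, had 11.2 and 12.5 FPKM in Sox10+EpCAM+ fMaSC and 12.1 and 16.7 in CD24+CD49f+ fMaSC, against 13.0 in EpCAM-negative stroma and 15.1 and 10.5 in CD24low stroma. For both genes all 4 groups overlapped or lay within the spread of a neighbouring pair of replicates. The pooled log2 difference was -0.05 for Rara (95% interval -0.49 to 0.40, adjusted p = 0.863) and 0.04 for Rarg (95% interval -0.40 to 0.49, adjusted p = 0.875). Differences beyond 0.5 in size lie outside these 2 pooled intervals only. In the Sox10 and EpCAM sort the intervals were wider, at -0.77 to 0.74 for Rara and -0.85 to 0.60 for Rarg. With rescaling to a common total, the pooled Rara difference was -0.53, where the median of all genes was -0.32.

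Rarb (ENSMUSG00000017491, chr14:16430842-16575472), the receptor gene with the element shown above, was the least abundant receptor in every library. It had 0.547 and 0.639 FPKM in Sox10+EpCAM+ fMaSC and 1.61 and 1.38 in CD24+CD49f+ fMaSC, against 2.15 in EpCAM-negative stroma and 2.15 and 2.50 in CD24low stroma. The group means ran in that order with no overlap of fMaSC and stroma, and Rarb made up 2.40% and 2.63% of the Rar sum in Sox10+EpCAM+ fMaSC and 4.31% to 10.8% elsewhere. Rarb was lower in all fMaSC than in all stroma, with a log2 difference of -0.64 (SE 0.167, adjusted p = 0.0338), and in the Sox10 and EpCAM sort with a difference of -0.98 (SE 0.191, adjusted p = 0.0135).

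In the CD24 and CD49f sort the Rarb difference was -0.41 (SE 0.156, adjusted p = 0.166), and between Sox10+EpCAM+ and CD24+CD49f+ fMaSC it was -0.65 (SE 0.156, adjusted p = 0.0552), and neither passed. The difference between strategies was -0.57 (adjusted p = 0.365). The pooled call ended without either Sox10+EpCAM+ library (adjusted p = 0.0956 and 0.0998), without EpCAM-negative stroma (0.162) and without CD24low replicate 1 or 2 (0.0530 and 0.0638), as well as with no filter (0.0763) and with rescaling (0.0573). The call in the Sox10 and EpCAM sort ended without Sox10+EpCAM+ replicate 1 or 2 (0.104 and 0.0804), and the difference between the fMaSC fractions passed with a pseudocount of 0.1 or 0.5 (0.0382 and 0.0464). The mean levels of Rarb and of the summed mesenchymal markers put the 4 groups in the same order, and the part of those cells in the Rarb values was not tested.

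Dhrs3 (ENSMUSG00000066026, chr4:144892827-144928209), which lowers the supply of retinaldehyde and is itself induced by retinoic acid in other systems, moved within a narrow range. It had 7.15 and 4.84 FPKM in Sox10+EpCAM+ fMaSC and 10.6 and 9.21 in CD24+CD49f+ fMaSC, against 8.88 in EpCAM-negative stroma and 6.13 and 6.23 in CD24low stroma. The CD24+CD49f+ libraries were the highest, above CD24low stroma, whereas both Sox10+EpCAM+ libraries lay below EpCAM-negative stroma. None of its differences passed the test: 0.60 in the CD24 and CD49f sort (SE 0.209, adjusted p = 0.142), -0.52 in the Sox10 and EpCAM sort (SE 0.256, adjusted p = 0.183), -0.66 between the fMaSC fractions (SE 0.209, adjusted p = 0.118), -1.11 between the strategies (SE 0.330, adjusted p = 0.205) and 0.15 over all libraries (SE 0.260, adjusted p = 0.683). The difference in the Sox10 and EpCAM sort passed with only the 3 libraries compared (adjusted p = 0.0362), the setting with 1 residual degree of freedom described for Crabp2.

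**Figure D3:**
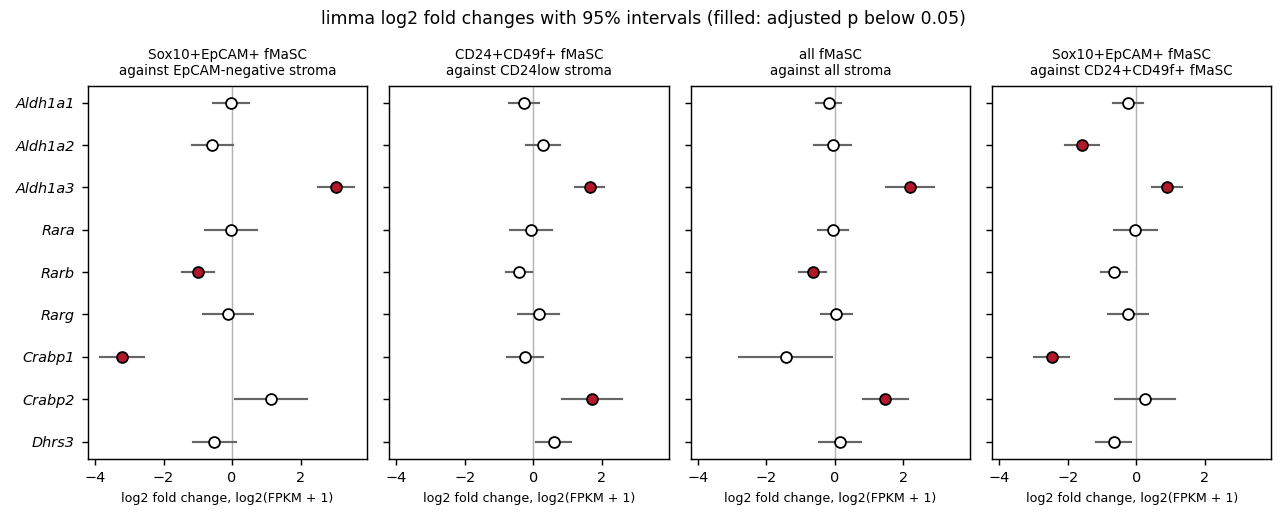
Log2 fold changes of the 9 genes (horizontal axes, on the log2(FPKM + 1) scale, first-named group over second) with 95% intervals from limma, in 4 comparisons; filled points have an adjusted p below the threshold of 0.05. Aldh1a3 is filled in all 4 panels, at 3.05, 1.64, 2.20 and 0.89, and Crabp1 is filled at -3.21 and -2.47 in the panels that set Sox10+EpCAM+ fMaSC against another fraction.

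Counted together, the members passed the test at adjusted p below 0.05 as follows. In CD24+CD49f+ fMaSC against CD24low stroma, 2 of 9 were higher (Aldh1a3 and Crabp2) and 0 lower, where 7.78% of all genes tested were higher and 2.94% lower. In Sox10+EpCAM+ fMaSC against EpCAM-negative stroma, 1 was higher (Aldh1a3) and 2 lower (Crabp1 and Rarb), where 12.5% and 13.6% of all genes were. Over all fMaSC against all stroma, 2 were higher (Aldh1a3 and Crabp2) and 1 lower (Rarb), where 15.6% and 9.50% of all genes were, and the libraries of fMaSC and stroma did not overlap for these 3 and overlapped for the other 6. Of all genes tested, 23.3% had every fMaSC library above every stroma library and 13.7% had every one below. For 9 genes these counts lie within 2 genes of what the background shares give, so the members are described gene by gene.

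Between Sox10+EpCAM+ and CD24+CD49f+ fMaSC, 1 member was higher (Aldh1a3) and 2 lower (Crabp1 and Aldh1a2), where 1.95% and 8.04% of all genes were. Between EpCAM-negative and CD24low stroma limma called 0 of 9, where 0.0139% of all genes were higher and 0.0139% lower, and 1 of 9 had an unadjusted p below 0.05, namely Aldh1a2 with a difference of -0.74 (unadjusted p = 0.0244, adjusted p = 1). The fMaSC-stroma fold differed between strategies for 1 of 9 (Crabp1), where it did for 1.51% of all genes. The members' median log2 difference was 0.16 in the CD24 and CD49f sort, where that of all genes was 0.13, -0.12 in the Sox10 and EpCAM sort (all genes 0.09), -0.05 over all fMaSC against all stroma (all genes 0.12) and -0.24 between the fMaSC fractions (all genes -0.01). Since fMaSC and stroma comparisons share libraries with the comparison of the fMaSC fractions, these counts are not independent of one another.

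The wider pathway was followed in 64 genes of 7 role lists, all in the table, of which 43 passed the filter on low values. Of these, 7 were higher and 10 lower in all fMaSC than in all stroma, 5 higher and 13 lower in Sox10+EpCAM+ fMaSC than in EpCAM-negative stroma, and 3 higher and 1 lower in the CD24+CD49f+ fraction than in its CD24low stroma. These are 16.3% and 23.3% of the 43 over all fMaSC (all genes 15.6% and 9.50%), 11.6% and 30.2% in the Sox10 and EpCAM sort (all genes 12.5% and 13.6%), and 6.98% and 2.33% in the CD24 and CD49f sort (all genes 7.78% and 2.94%). The shares of higher genes were thus near those of all genes in each. Between the fMaSC fractions 0 were higher and 8 (18.6%) lower in Sox10+EpCAM+ cells, where 8.04% of all genes were lower, and between the stroma fractions limma called 0, with 2 at an unadjusted p below 0.05. The median log2 difference of the 43 over all fMaSC against all stroma was -0.17, where that of all genes was 0.12. The lists were chosen with earlier results of these data known, so their counts serve as description.

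Uptake and carriage of vitamin A were followed in Stra6 and Rbp4. Stra6, which encodes the membrane receptor that takes up retinol, had 1.88 and 1.90 FPKM in Sox10+EpCAM+ fMaSC and 0.831 and 1.17 in CD24+CD49f+ fMaSC, against 0.691 in EpCAM-negative stroma and 0.256 and 0.0626 in CD24low stroma. Stra6 was higher in all fMaSC by 0.78 (SE 0.142, adjusted p = 0.0103), a call lost with rescaling (adjusted p = 0.135) and with quantile normalization (0.0692). It reached 1 FPKM in fMaSC libraries only, so higher in fMaSC was the only direction open to it.

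Rbp4, which encodes the secreted retinol carrier of blood and of fat, had 0.0440 and 0.618 FPKM in Sox10+EpCAM+ fMaSC but 21.1 and 26.0 in CD24+CD49f+ fMaSC, against 32.1 in EpCAM-negative stroma and 38.1 and 56.5 in CD24low stroma. The pattern had the same break as that of Crabp1, between Sox10+EpCAM+ fMaSC and all other libraries. Rbp4 was lower in Sox10+EpCAM+ fMaSC than in EpCAM-negative stroma, with a difference of -4.67 (SE 0.363, adjusted p = 0.000614), and lower than in CD24+CD49f+ fMaSC, with a difference of -4.23 (SE 0.296, adjusted p = 0.00144), both kept under every alternative tried. The comparison with EpCAM-negative stroma rests on a lone library and could not be run without it. Adipocyte markers, at 0.704 and 0.444 FPKM (2 genes summed) in Sox10+EpCAM+ cells, 82.8 and 34.2 in CD24+CD49f+ cells and 121 to 224 in stroma, stood in the same order, and their part was not tested.

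Retinol oxidation and its reverse gave 2 genes higher and 3 lower of 10 tested in all fMaSC against all stroma, where 15.6% and 9.50% of all genes were, so that 2 higher of 10 is near the share of all genes. Adh1, an alcohol dehydrogenase that oxidises retinol, had 0.212 and 0.342 FPKM in Sox10+EpCAM+ fMaSC and 7.60 and 11.4 in CD24+CD49f+ fMaSC, against 24.7 in EpCAM-negative stroma and 18.9 and 27.4 in CD24low stroma. Sox10+EpCAM+ libraries were lowest, CD24+CD49f+ libraries next and stroma libraries highest, with no overlap between these. Adh1 differed by -4.33 in the Sox10 and EpCAM sort (SE 0.320, adjusted p = 0.000531) and by -3.02 between the fMaSC fractions (SE 0.262, adjusted p = 0.00257), again under every alternative tried. As for Rbp4, the first could not be run without its lone stroma library.

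Rdh12, a retinal reductase, had 0.229 and 0.168 FPKM in Sox10+EpCAM+ fMaSC and 1.61 and 0.880 in CD24+CD49f+ fMaSC, against 2.39 in EpCAM-negative stroma and 2.59 and 4.50 in CD24low stroma, a pooled difference of -1.20 (SE 0.223, adjusted p = 0.0111). Adh7, another retinol-oxidising alcohol dehydrogenase, had at most 0.506 FPKM in fMaSC and 1.10 to 2.04 in stroma, a pooled difference of -1.01 (SE 0.185, adjusted p = 0.0107). Adh7 reached 1 FPKM in stroma libraries only, so it passed the filter through the group where it was high. Lower in fMaSC was thus the only direction open to it. Rdh12 reached 1 FPKM in stroma and in CD24+CD49f+ replicate 1 only. Both fMaSC fractions lay below every stroma library for these genes, and both calls ended without EpCAM-negative stroma (adjusted p = 0.0677 for Rdh12 and 0.0576 for Adh7). Rdh5, which oxidises retinol in the eye, was called only within the Sox10 and EpCAM sort, where it was lower, at 4.31 and 2.80 FPKM in Sox10+EpCAM+ fMaSC against 11.5 in EpCAM-negative stroma, a difference of -1.48 (SE 0.386, adjusted p = 0.0377) that ended without either Sox10+EpCAM+ library (0.0806 and 0.159) or either CD24low library (0.0726 and 0.0723), with no filter (0.102) and with quantile normalization (0.0583). The 2 genes that were higher, Rdh11 and Dhrs4, were named after their values were seen, with pooled differences of 0.65 (SE 0.146, adjusted p = 0.0221) and 0.58 (SE 0.162, adjusted p = 0.0421). These calls ended without either Sox10+EpCAM+ library, at adjusted p = 0.0768 and 0.0772 for Rdh11 and 0.114 and 0.119 for Dhrs4. They also ended without EpCAM-negative stroma (0.129 and 0.220) and without CD24low replicate 1 (0.0753 and 0.1001), and for Dhrs4 without CD24low replicate 2 (0.0680) and CD24+CD49f+ replicate 1 (0.104). Rescaling ended both (0.687 for Rdh11 and 0.762 for Dhrs4), and for Dhrs4 so did no filter (0.0706), median-of-ratios scaling (0.0928) and quantile normalization (0.0876).

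Among 3 tested aldehyde dehydrogenases outside the members, Aldh1a7 and Aldh1l1 were lower in all fMaSC, with differences of -0.82 (SE 0.205, adjusted p = 0.0299) and -0.83 (SE 0.218, adjusted p = 0.0341). Aldh1a7 had 1.97 and 1.67 FPKM in Sox10+EpCAM+ fMaSC and 2.97 and 1.83 in CD24+CD49f+ fMaSC, against 3.52 in EpCAM-negative stroma and 4.14 and 6.69 in CD24low stroma. Aldh1l1, an enzyme of folate metabolism, had 0.255 to 0.942 FPKM in fMaSC and 1.16 to 2.15 in stroma. It passed the filter through stroma only, so lower in fMaSC was the only direction open to it. For both genes every fMaSC library lay below every stroma library. Both calls ended without either Sox10+EpCAM+ library (adjusted p = 0.0657 and 0.0856 for Aldh1a7, 0.0902 and 0.0950 for Aldh1l1) and without EpCAM-negative stroma (0.0897 and 0.181). The Aldh1a7 call also ended without CD24low replicate 2 (0.0604) and the Aldh1l1 call without CD24low replicate 1 (0.101), and both ended with no filter (0.0728 and 0.0706).

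Clearance is the work of the Cyp26 enzymes, and 2 of the 3 Cyp26 genes were at or next to 0. Cyp26a1, whose element is printed above, was listed at 0 to 0.0223 FPKM over the 7 libraries, which is at most about 1 fragment at these depths, and Cyp26c1 was listed at 0 in all 7. Neither passed the filter, so neither was tested. Cyp26b1 had 1.31 and 1.73 FPKM in Sox10+EpCAM+ fMaSC and 1.16 and 7.97 in CD24+CD49f+ fMaSC, against 0.688 in EpCAM-negative stroma and 0.942 and 1.48 in CD24low stroma. CD24+CD49f+ replicate 2 was far above its replicate, and Cyp26b1 was called in no comparison.

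Cyp1b1, a cytochrome that can also oxidise retinol and retinaldehyde, had 34.4 and 37.8 FPKM in Sox10+EpCAM+ fMaSC and 25.6 and 41.9 in CD24+CD49f+ fMaSC, against 8.15 in EpCAM-negative stroma and 5.94 and 7.95 in CD24low stroma. Every fMaSC library stood above every stroma library, and the pooled difference was 2.07 (SE 0.203, adjusted p = 0.000948), kept under every alternative tried. It was also higher within each sort, by 2.02 in the Sox10 and EpCAM sort (SE 0.336, adjusted p = 0.00779) and by 2.10 in the CD24 and CD49f sort (SE 0.274, adjusted p = 0.00725). Rescaling ended both of these calls (adjusted p = 0.196 and 0.0873), and the second ended without CD24low replicate 1 (0.0624).

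Of the receptor partners, Rxrb was the most abundant, with 21.9 and 24.8 FPKM in Sox10+EpCAM+ fMaSC and 21.6 and 19.5 in CD24+CD49f+ fMaSC, against 14.9 in EpCAM-negative stroma and 16.6 and 14.4 in CD24low stroma. Every fMaSC library lay above every stroma library, as for 23.3% of all genes tested, and Rxrb was higher in all fMaSC by 0.47 (SE 0.139, adjusted p = 0.0475). This call ended in 11 of 15 alternatives, and with rescaling the difference was -0.0071. Leaving out any library but CD24+CD49f+ replicate 2 ended it, at adjusted p = 0.0767 to 0.240. Rxra had 9.69 and 10.6 FPKM in Sox10+EpCAM+ fMaSC and 9.72 and 15.5 in CD24+CD49f+ fMaSC, against 15.9 in EpCAM-negative stroma and 15.2 and 14.3 in CD24low stroma, and was called in no comparison. Rxrg had 0.0686 and 0.252 FPKM in Sox10+EpCAM+ fMaSC and 2.72 and 1.90 in CD24+CD49f+ fMaSC, a difference of -1.51 (SE 0.211, adjusted p = 0.0105) that ended without Sox10+EpCAM+ replicate 1 or 2 (0.114 and 0.0677) and with no filter (0.0564). In stroma Rxrg had 0.525 FPKM in the EpCAM-negative library and 1.57 and 2.26 in CD24low libraries. Schwann cell and melanoblast markers were highest in the same fraction as Rxrg, at 96.4 and 55.3 FPKM (4 genes summed) in CD24+CD49f+ cells and 14.0 and 21.9 in Sox10+EpCAM+ cells, against 1.00 in EpCAM-negative stroma and 8.26 and 6.03 in CD24low stroma, and their part was not tested. None of 9 coregulators tested was called in any comparison by limma, and 0 had an unadjusted p below 0.05.

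Of the 10 tested genes known from other systems to be induced by retinoic acid, 1 was higher and 7 lower in Sox10+EpCAM+ fMaSC than in EpCAM-negative stroma, where 12.5% and 13.6% of all genes were. Their median log2 difference was -1.75, where that of all genes was 0.09. The same 10 gave 0 calls in the CD24 and CD49f sort, where 5 had an unadjusted p below 0.05 and the median was -0.31 (all genes 0.13). Over all fMaSC against all stroma, 1 was higher and 4 lower (all genes 15.6% and 9.50%), and between Sox10+EpCAM+ and CD24+CD49f+ fMaSC 5 were lower (all genes 8.04%). Several of these genes are also regulators of mesenchyme, and the mesenchymal markers given above were 35.8 and 61.8 FPKM in Sox10+EpCAM+ cells against 5483 in EpCAM-negative stroma. Their part in these counts was not tested.

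Rarres2, which encodes the secreted signal chemerin, had 0.568 and 0.935 FPKM in Sox10+EpCAM+ fMaSC and 49.0 and 41.6 in CD24+CD49f+ fMaSC, against 108 in EpCAM-negative stroma and 80.5 and 139 in CD24low stroma. The Sox10+EpCAM+ libraries stood apart from all others, with a difference of -5.97 from EpCAM-negative stroma (SE 0.361, adjusted p = 0.000341) and -4.73 from CD24+CD49f+ fMaSC (SE 0.295, adjusted p = 0.00109). Nr2f2, a nuclear receptor of mesenchyme and veins, had 1.70 and 1.69 FPKM in Sox10+EpCAM+ fMaSC and 10.2 and 12.9 in CD24+CD49f+ fMaSC, against 18.6 in EpCAM-negative stroma and 16.1 and 11.5 in CD24low stroma. Its differences were -2.86 (SE 0.266, adjusted p = 0.00110) and -2.22 (SE 0.217, adjusted p = 0.00334) in the same comparisons. For both genes these calls were kept under every alternative that could be run. Those against EpCAM-negative stroma could not be run without that lone library.

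Gata6, a transcription factor of mesoderm and endoderm, had 0.143 and 0.121 FPKM in Sox10+EpCAM+ fMaSC and 4.70 and 9.64 in CD24+CD49f+ fMaSC, against 13.6 in EpCAM-negative stroma and 17.0 and 13.4 in CD24low stroma. It differed by -3.69 in the Sox10 and EpCAM sort (SE 0.382, adjusted p = 0.00154), and by -2.78 between the fMaSC fractions (SE 0.312, adjusted p = 0.00516) and that second call ended without Sox10+EpCAM+ replicate 1 (0.0538). Meis2, a homeobox factor of limb and other mesenchyme, had 3.25 and 4.70 FPKM in Sox10+EpCAM+ fMaSC and 8.01 and 13.0 in CD24+CD49f+ fMaSC, against 24.9 in EpCAM-negative stroma and 20.2 and 14.6 in CD24low stroma, with a difference of -2.40 in the Sox10 and EpCAM sort (SE 0.361, adjusted p = 0.00548). Nr2f1, Hoxa5 and Rarres1 were also lower in the Sox10 and EpCAM sort, and were named after their values were seen, as was Tgm2. Nr2f1, the close relative of Nr2f2, had 0.393 and 0.315 FPKM in Sox10+EpCAM+ fMaSC and 7.39 and 4.52 in CD24+CD49f+ fMaSC, against 4.86 in EpCAM-negative stroma and 3.46 and 2.52 in CD24low stroma, with a difference of -2.11 in that sort (SE 0.304, adjusted p = 0.00465). The Hoxa5 and Rarres1 calls ended without either Sox10+EpCAM+ library (0.0621 and 0.0566 for Hoxa5, 0.133 and 0.112 for Rarres1), and the Rarres1 call without either CD24low library (0.0633 and 0.0624), with no filter (0.0801) and with quantile normalization (0.0939). Tgm2, a transglutaminase, was the only one of the 10 that was higher, at 11.0 and 13.0 FPKM in Sox10+EpCAM+ fMaSC against 5.29 in EpCAM-negative stroma, a difference of 1.04 (SE 0.257, adjusted p = 0.0311) that ended without either Sox10+EpCAM+ library (0.110 and 0.164), without either CD24low library (0.0630 and 0.0626), with no filter (0.0632) and with rescaling (0.729).

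**Figure D4:**
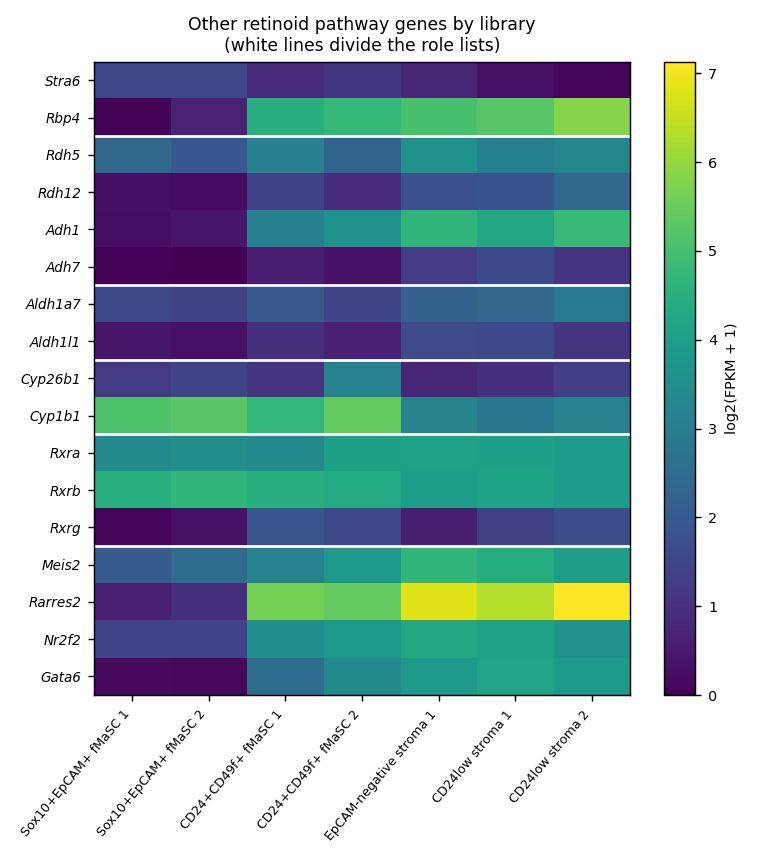
Level of 17 other retinoid pathway genes (rows, grouped by role with white dividing lines) in the 7 libraries (columns), as log2(FPKM + 1) from 0 (dark) upwards (bright). Rbp4, Adh1, Rarres2, Nr2f2 and Gata6 are dark in the 2 Sox10+EpCAM+ columns and bright in the stroma columns, while Cyp1b1 shows the opposite order.

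The genes nearest to each member in pattern were found by the root mean square (RMS) difference of log2(FPKM + 1) values centred on each gene's mean over the 7 libraries, as a description. For Aldh1a3 these were Fosl1 (0.134), Clu (0.145) and Duoxa1 (0.151), and for Crabp2 they were Dgkz (0.229), Plekho1 (0.253) and Cbarp (0.253). Crabp1 lay nearest to Tspan11 (0.114), Nr2f2 (0.144) and Klf14 (0.179). Aldh1a2 lay nearest to Cdh5 (0.167), followed by Entpd2 (0.212) and Tspan18 (0.212). Cdh5, the endothelial cadherin, also stands in the endothelial marker list, where Tek was instead highest in CD24low stroma. In Sox10+EpCAM+ fMaSC Cdh5 still had 0.857 and 0.743 FPKM, where Aldh1a2 had 0 and 0.0146. The log2(FPKM + 1) scale understates the change of low genes such as Aldh1a2 and Rarb. Their nearest genes therefore need not share the size of their change in FPKM. Rarb lay nearest to Yipf5 (0.0523), Anxa5 (0.0633) and Gusb (0.0768).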

How the data were processed

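The 7 libraries were made with Illumina TruSeq kits and read as 100-base paired ends on a HiSeq2000, per the labels' protocols. The deposited table gives FPKM for each gene in each library, per the file headers. The submitters' processing notes name STAR, Cufflinks, GRCm38 and mm10, without versions or roles. No column was left out. A Sox10 overexpression experiment in the growth text was not analysed here. The column name of Sox10+EpCAM+ replicate 1 calls it lineage-negative and its title does not.

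Ensembl identifiers were named from GENCODE vM21 for 36664 (95.0%) of 38579 gene entries. The 8 added reporter and spike-in sequences stayed out of the tests. Coordinates are those of the table. As FPKM are no counts, a log-scale test was used on log2(FPKM + 1) and no count model was run. A gene was kept where at least 2 of 7 libraries reached 1 FPKM (14418 genes). The fit of 4 group means by limma 3.58.1 (R 4.3.3) used an empirical Bayes trend and left 3 residual degrees of freedom. Cell type and sorting strategy were the terms of the pooled comparison, which left 4. The difference between strategies is the fMaSC-stroma fold of the Sox10 and EpCAM sort minus that of the CD24 and CD49f sort. Tests were two-sided, adjusted by Benjamini-Hochberg over all genes tested, with a threshold of 0.05. The lone EpCAM-negative library is assumed to vary like the rest. Replicates are numbered in series order, which pairs nothing. Since the labels do not say how many animals a library holds, p-values measure only the spread between these libraries.

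The 9 members and all lists were chosen with earlier results of these data known. Every member is named, and from each role list up to 4 genes, those called in a comparison of fMaSC with stroma and with the largest pooled difference, with Cyp26 and Rxr genes always. A gene that this rule also names is not reported here. Depth was estimated from low FPKM on transcripts of 800 to 6000 bases, and 73.6% to 78.4% of these values lay within 0.15 of a whole fragment, so it is approximate. The fit was checked on simulated data of 14418 genes and 50 changed genes per size, far fewer than were called in most comparisons of the real data. Changed genes were drawn only from those with a mean log2(FPKM + 1) above 2. The rates therefore do not cover lower genes such as Aldh1a1, Aldh1a2 and Rarb. Unchanged genes that were called numbered 6 to 17 per comparison. A log2 change of 2 was recovered for 98% of genes in the CD24 and CD49f sort, for 84% in the Sox10 and EpCAM sort, for 96% in the pooled comparison, for 92% of genes between both kinds of fMaSC, for 78% between both kinds of stroma, and for 52% as a difference between strategies. A change of 1 was recovered for 22%, 16%, 72%, 34%, 6% and 8% in the same order. Folds that differ between the sorts were not simulated, and in the real pooled fit they widen the spread. For Crabp1 the SE was 0.574 pooled, against 0.212 in the CD24 and CD49f sort and 0.260 in the Sox10 and EpCAM sort. The pooled rates therefore do not hold for such genes. Alternatives were pseudocounts of 0.1 and 0.5, no filter, a filter of 5 FPKM, rescaling to a common total (TPM), median-of-ratios scaling, quantile normalization, no trend, only the libraries compared, and each library left out. Comparisons that use the EpCAM-negative group could not be run without its lone library, except the pooled one. A gene below the filter in a setting was not tested there. Python 3.11.15 with pandas 2.3.3 and numpy 2.4.6 made the tables, and matplotlib 3.10.9 the figures.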

Additional observations from a re-analysis of the deposited data

Results flagged for a closer look

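The fMaSC-stroma difference of 6 genes was unlike between the sorting strategies by a test of that difference itself (the Sox10 and EpCAM difference minus the CD24 and CD49f difference, limma adjusted p). It was -2.96 for Crabp1 (adjusted p = 0.0217), the only member among them. For the other retinoid genes it was -4.76 for Rarres2 (0.0170), -3.72 for Rbp4 (0.0298), -3.13 for Adh1 (0.0313), -2.89 for Nr2f1 (0.0331) and -2.64 for Nr2f2 (0.0313). All 6 calls ended without Sox10+EpCAM+ replicate 1, without Sox10+EpCAM+ replicate 2, without CD24low replicate 1 and without CD24low replicate 2. Each of these fits leaves 1 library in a further group and 2 residual degrees of freedom. Far fewer of all genes tested passed there than with all libraries, so the loss is not particular to these 6 genes. In all 6, the Sox10+EpCAM+ libraries were the lowest of the 7. Of all genes tested, 1.51% passed this test. Among them were 5 of the 6 mesenchymal markers in the same direction, Col1a1 (-5.51), Col1a2 (-5.51), Col3a1 (-5.32), Dpt (-5.19) and Prrx1 (-4.52), and the adipocyte marker Plin1 (-2.70), and the part of those cells in the 6 differences was not tested. Reporter, animals and preparation may differ between the strategies too, and cannot be told apart from them here.

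The added sequence entry named spliced_GFP, used in no comparison, averaged 207 FPKM in Sox10+EpCAM+ fMaSC, at 202 and 211 FPKM in its libraries. It stood at 0.0710 and 0.0531 FPKM in CD24+CD49f+ fMaSC, 0.660 FPKM in EpCAM-negative stroma and 0.0592 and 0.131 FPKM in CD24low stroma. The sort of the first fraction was on a Venus reporter.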

How the results depend on the processing

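Rescaling to a common total moved the median difference of all genes to -0.63 in the Sox10 and EpCAM sort (0.09 as deposited), -0.11 in the CD24 and CD49f sort (0.13) and -0.32 over all fMaSC against all stroma (0.12). Relative to that median the pooled difference of Aldh1a3 was 2.14, of Crabp2 1.47 and of Rarb -0.84. Over all genes the pooled calls were 2252 higher and 1369 lower, against 831 and 950 with rescaling, 1707 and 2098 with median-of-ratios scaling and 1663 and 2056 with quantile normalization. Of the 9 members, 2 were called in the CD24 and CD49f sort, but 1 with no filter, 0 with rescaling and 1 with only the libraries compared. The 3 pooled calls fell to 1 with rescaling, and the call for the difference between strategies fell to 0 with no filter and 0 with rescaling. Leaving out each library gave 1 to 2 calls in the CD24 and CD49f sort, 2 to 5 in the Sox10 and EpCAM sort, 2 to 4 over all libraries, 1 to 3 between the fMaSC fractions and 0 to 1 for the difference between strategies. Between the stroma fractions 0 members were called under every alternative run. None of the members' calls changed sign with scaling, but uncalled differences did. Pooled, Rarg was -0.44 with rescaling, -0.080 with median-of-ratios scaling and -0.053 with quantile normalization, Dhrs3 was -0.31 and Rxrb, which was called as deposited, -0.0071 with rescaling. In other comparisons Aldh1a1 was 0.17 between the fMaSC fractions and 0.088 in the Sox10 and EpCAM sort with quantile normalization, and Rarg in the CD24 and CD49f sort was -0.12 with rescaling and -0.011 with median-of-ratios scaling. Rara was 0.065 between the fMaSC fractions with median-of-ratios scaling and 0.025 with quantile normalization, and with rescaling it was -0.46 for the difference between strategies. Between the stroma fractions Rara was 0.20 and Rarb 0.15 with rescaling. With a library left out, the pooled difference ran from -0.28 to 0.27 for Aldh1a2, from -0.19 to 0.10 for Rara, from -0.10 to 0.16 for Rarg and from -0.0057 to 0.60 for Dhrs3, and Crabp2 between the fMaSC fractions ran from -0.12 to 0.63. The cause was not tested. Retinoid list calls with a library left out ran from 8 to 24 in the Sox10 and EpCAM sort, from 1 to 8 in the CD24 and CD49f sort and from 4 to 25 over all libraries. Leaving out any library but EpCAM-negative stroma left 1 library in its group, and the calls over all genes moved as well. Member and list calls with a library left out are therefore not particular to these genes. Aldh1a1, Aldh1a2 and Rarb did not pass the filter of 5 FPKM, so no value was had there. No paired analysis was possible because the labels carry no replicate numbers that groups share. Differences under a few hundredths of an FPKM are not detectable at this depth.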
